A study of Homo sapiens with 6 samples.

Results

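Antisense RNA genes are genes whose RNA is transcribed from the strand opposite a gene that is usually protein-coding. The 218 described here were chosen by their gene type, antisense in the deposited table, and by their summed level, at least 300 counts over its 6 libraries, after 2 small nucleolar RNA host genes, SNHG7 and SNHG12, had been dropped by name. They were 218 of the 5583 antisense genes and of the 58735 genes of all types in the table. The samples were Huh7, an established human hepatoma line, grown in RPMI-1640 medium with serum. The shITGB5 group held 3 libraries from cells with a short hairpin RNA against ITGB5, which encodes the integrin beta 5 subunit, and the shcontrol group held 3 libraries from cells with a control hairpin. All 6 libraries came from the same line, and how many hairpins, clones or separate cultures stand behind each group is not given in the sources used here, so p-values measure only the spread between libraries, which may be technical. The table names its columns S and NC, which were read as shITGB5 and shcontrol although the labels do not spell these codes out.

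An antisense RNA can start from the same stretch of open DNA as its sense gene and run away from it, can run into the end of its sense gene, or can lie inside it. Some act on their own locus, as KCNQ1OT1 does in genomic imprinting, some host small nucleolar RNAs, as ZFAS1 does, and for many no function is known. Many are kept at low levels by early termination and by the nuclear exosome, the complex that degrades unstable nuclear RNA.

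The rule used the summed counts of both groups together and not the difference between them. At its edge, FEZF1-AS1 and ASMTL-AS1 had 301 counts each and were kept, with log2 changes of -0.14 and 0.22, and SLFNL1-AS1 with 298 counts and PRKCZ-AS1 with 295 counts were left out, with log2 changes of -0.29 and -0.40. A log2 change is that of shITGB5 over shcontrol throughout. Of the other antisense genes, 1836 had a count of 0 in every library and 3527 lay above 0 and under the minimum. The members lay on 23 chromosomes, 99 had names ending in AS or DT forms and 100 were named by a clone only.

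The words and promoters that the results below refer to are shown first. HAGLR, KCNQ1OT1 and ID2-AS1, 3 of the antisense genes that were lower in shITGB5, hold the 7-base word AGACCAA in their transcripts. Each line gives 29 bases of the transcript, 5′ to 3′, from the minus strand of GRCh38, with the word in capitals. The sites lie in exons at chr2:176175508-176175536 (HAGLR), chr2:8678141-8678169 (ID2-AS1) and chr11:2610043-2610071 (KCNQ1OT1, 1 of its 17 copies).
HAGLR: gaccctcccagAGACCAAtgccggagagg
ID2-AS1: aagcgcgggccAGACCAAtcccctttcta
KCNQ1OT1: gtacatagaaaAGACCAAaagtaaaactg

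HAGLR and ID2-AS1 also start close to a protein-coding gene on the other strand that was lower with them, and their promoters are printed to show that shared stretch. Of these genes, HOXD1 had only 94 counts in all and did not pass in some fits with 1 library left out. The promoters of other genes that passed are not printed, among them ZFAS1, whose sense gene ZNFX1 did not pass. The nearest annotated starts of HAGLR and HOXD1 lie 96 bases apart, and those of ID2-AS1 and ID2 lie 193 bases apart, in RefSeq on GRCh38.p14. Each promoter runs from 250 bases before to 50 bases after a start, on the minus strand, at chr2:176188523-176188822 for HAGLR and chr2:8681814-8682113 for ID2-AS1. Capitals mark CCAAT and GGGCGG on either strand.
HAGLR promoter: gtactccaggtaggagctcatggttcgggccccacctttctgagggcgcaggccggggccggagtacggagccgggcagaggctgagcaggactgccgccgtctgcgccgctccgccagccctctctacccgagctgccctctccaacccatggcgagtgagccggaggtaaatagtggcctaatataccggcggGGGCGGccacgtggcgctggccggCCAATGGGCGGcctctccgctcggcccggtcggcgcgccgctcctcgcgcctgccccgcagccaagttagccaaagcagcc
ID2-AS1 promoter: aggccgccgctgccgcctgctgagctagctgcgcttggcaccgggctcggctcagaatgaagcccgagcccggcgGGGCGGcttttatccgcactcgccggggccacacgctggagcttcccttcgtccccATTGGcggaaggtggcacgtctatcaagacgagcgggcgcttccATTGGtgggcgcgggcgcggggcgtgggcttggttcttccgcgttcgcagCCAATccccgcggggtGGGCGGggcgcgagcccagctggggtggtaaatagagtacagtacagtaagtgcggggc
The printed HAGLR window held 1 CCAAT and 2 GGGCGG, with the CCAAT directly followed by a GGGCGG. The printed ID2-AS1 window held 3 CCAAT and 2 GGGCGG, and neither held TATAAA. HAGLR has other annotated starts, with no CCAAT in the windows of those at 176188958 and 176178129 and 1 in that of 176188269. RefSeq promoters were found for 82 of the 218 antisense genes, 109 windows in all. CCAAT stood in 41.3% of these windows and in 34.6% of all 35116 windows of the same length, GGGCGG in 56.9% and 45.0%, and TATAAA in 9.17% and 11.5%. The median number of CpG pairs per window was 24 for the antisense genes and 14 for all genes. The antisense genes were chosen for at least 300 counts, and windows of other genes with like counts were not compared. Whether these differences go with the level of the genes was not tested.

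Library totals lay between 16563911 and 18011313 counts in shITGB5 and between 15777922 and 17476580 in shcontrol, and 3 counts in a library, the limit that a count of 0 allows, correspond to 0.167 to 0.190 CPM (counts scaled to library size), for counting error only. Genes above 0 numbered 25856 to 26143 in shITGB5 libraries and 26795 to 26976 in shcontrol libraries. ITGB5 averaged 175.8 ± 4.28 CPM in shITGB5 and 211.3 ± 6.33 CPM in shcontrol (SD, n = 3 each), a log2 change of -0.27 (edgeR adjusted p = 2.13e-09), and the exact permutation test gave the smallest two-sided p that 3 libraries against 3 allow, 0.1. Its own antisense gene, ITGB5-AS1, had 11 counts in all and was not tested. All 10 hepatocyte and hepatoma markers on the list were above 0, with a summed level of 8511 to 8707 CPM in shITGB5 and 7573 to 7757 CPM in shcontrol, and 7 of them were higher in shITGB5. Of the markers of other cells, 1 of 5 endothelial genes could be tested, with KDR at 0 and sums of 4.17 to 5.50 CPM in shITGB5 and 3.55 to 5.62 CPM in shcontrol. Blood and immune markers, 2 of 6 tested, summed to 40.2 to 42.7 CPM in shITGB5 and 37.5 to 37.9 CPM in shcontrol, and fibroblast markers, 5 of 6 tested and 1 of them higher, to 323.2 to 332.7 CPM in shITGB5 and 288.8 to 302.3 CPM in shcontrol. The 13 mitochondrial transcripts summed to 28717 to 29080 CPM in shITGB5 and 30803 to 31581 CPM in shcontrol, and 9 were lower. The part of these shifts in the results below was not tested.

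Genes whose exons lie wholly in exons of the other strand had almost no counts. The libraries were made with a directional kit, but no source used here names the counting program or how it treated strand. Of 324 antisense genes whose exonic bases all lie in exons of the other strand, 323 had a count of 0 in every library, as had 17 of 18 protein-coding genes placed in the same way, and the highest sum among all 761 genes of any type so placed was 4 counts. Of antisense genes that share no exonic base with the other strand, 34.4% were at 0, and of such protein-coding genes 17.0%. In between, the share of antisense genes at 0 was 19.8% with above 0 to 25% of exonic bases shared, 22.2% with 25 to 50% and 28.2% with 50 to 75%, each below that of genes that share none. It was above that of genes that share none with 75 to 95% shared (42.5%) and with 95 to below 100% shared (81.6%). Among the 218 antisense genes, 162 share some exonic bases with the other strand, a median of 12.5% of their exons and at most 75.4%, and 56 share none. Exonic bases shared by both strands thus gave almost no counts to the gene of either strand where a gene had no others. Whether strand was used to assign reads over unshared bases was not tested, for the 162 or for the 56.

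**Figure D1:**
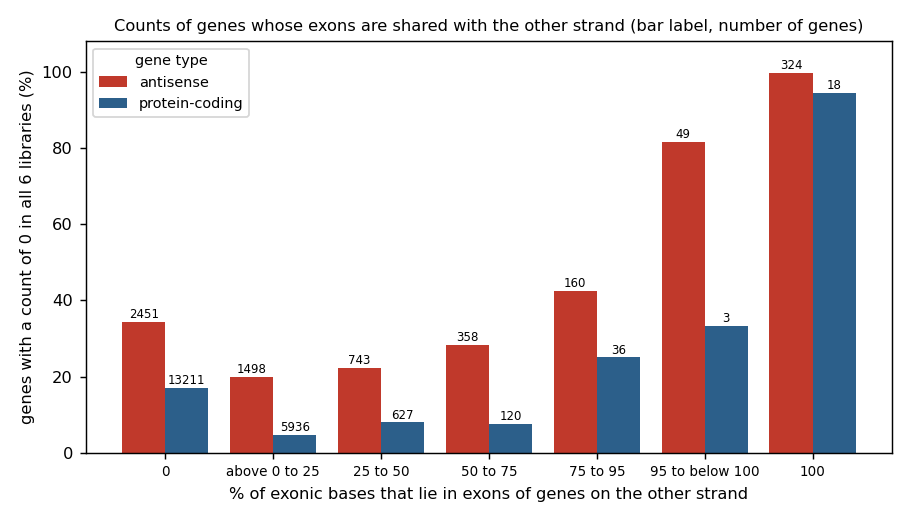
Share of genes with a count of 0 in all 6 libraries (y axis, %) by the share of their exonic bases that lie in exons of the other strand (x axis, %), for antisense genes in red and protein-coding genes in blue, with the number of genes on each bar. The bars reach 99.7% of antisense genes and 94.4% of protein-coding genes where all exonic bases are shared.

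Few of the antisense genes differed between the groups, and most of those that did were lower in shITGB5. All 218 were tested, and 10 passed (4.59%; edgeR quasi-likelihood test, Benjamini-Hochberg adjusted p under 0.05 over 16577 genes), against 15.1% of all genes tested. In shITGB5, 2 were higher, where 8.31% of all genes were higher, and 8 were lower, where 6.74% of all genes were lower. The 3 libraries of shITGB5 lay all above or all below the 3 of shcontrol for 41 antisense genes (18.8%), 15 above and 26 below, against 28.5% of all genes, 14.7% above and 13.8% below. At an unadjusted p under 0.05, 23 passed (10.6%), 4 higher and 19 lower, against 25.4% of all genes. The median log2 change was -0.03, with quartiles of -0.15 and 0.08 and a range of -0.87 to 0.47, and the median over all genes was 0.00. The log2 change was below 0 for 126 and above 0 for 92, and 173 lay within 0.25 of 0.

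The antisense genes had fewer counts than most genes tested. Their median sum over 6 libraries was 554 counts, against 1966 for all genes tested, and the median SE of the log2 change was 0.165 against 0.0889. With 300 to 999 counts, 4 of 158 antisense genes passed (2.53%), against 5.18% of all genes in that range. With 1000 to 2999 counts, 3 of 48 passed (6.25%), against 12.4%. With 3000 to 19999 counts, 3 of 12 passed (25%), against 24.8%. Of other gene types, 17.8% of protein-coding genes and 3.24% of lincRNA genes passed. Per length, the antisense genes had a median of 2.47 FPKM, the mean CPM over 6 libraries per kilobase of exon, with 17 over 10 FPKM, while tested protein-coding genes had a median of 5.64 FPKM.

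As a share of all counts, the 218 genes took 0.208% ± 0.00138 in shITGB5 and 0.218% ± 0.00163 in shcontrol (SD, n = 3 each), and the highest shITGB5 library lay below the lowest shcontrol library. Without KCNQ1OT1 and HAGLR the share was 0.201% ± 0.00118 in shITGB5 and 0.206% ± 0.00160 in shcontrol. The summed shares of other RNA classes were also lower. LincRNA genes took 0.435% ± 0.00324 in shITGB5 and 0.463% ± 0.00170 in shcontrol. Among them, MALAT1 averaged 173.8 CPM in shITGB5 and 368.7 CPM in shcontrol, and NEAT1 297.7 and 355.8 CPM. The lincRNA share without MALAT1 and NEAT1 was not computed, so the lower sum does not show a fall across lincRNA genes. Of the 772 lincRNA genes tested, 3.24% passed, against 15.1% of all genes. Mitochondrial transcripts took 3.27% ± 0.0287 in shITGB5 and 3.50% ± 0.0364 in shcontrol. Whether the share of antisense RNA is tied to those of lincRNA genes or mitochondrial transcripts was not tested.

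**Figure D2:**
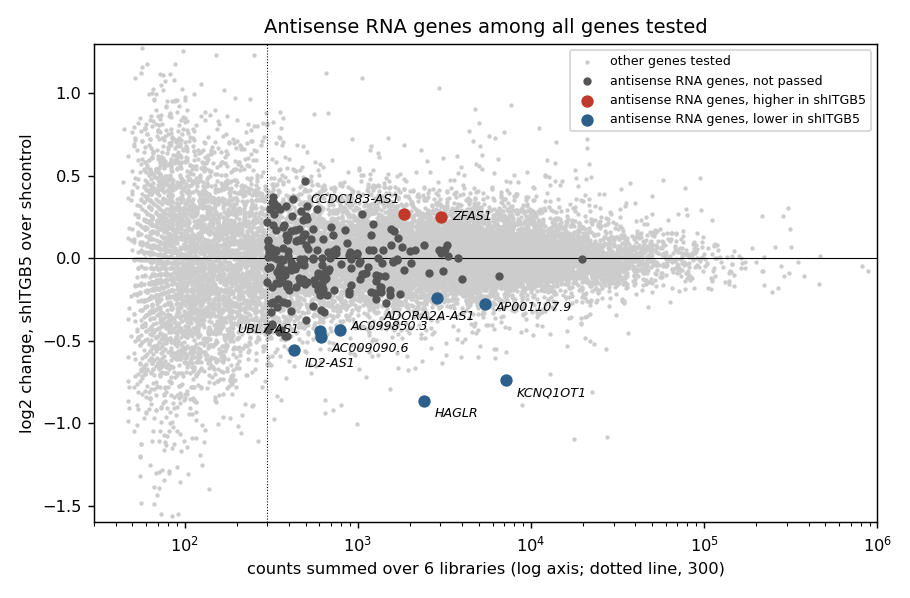
Log2 change of shITGB5 over shcontrol (y axis) against the counts summed over 6 libraries (x axis, log scale) for the 218 antisense genes (dark grey, or red and blue where they passed) and the other genes tested (light grey, those beyond the axis limits not drawn). HAGLR and KCNQ1OT1 lie lowest at -0.87 and -0.74, and the 2 higher genes lie at 0.25 and 0.27.

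HAGLR and KCNQ1OT1 had the largest falls. HAGLR, also called HOXD-AS1, is an RNA of the HOXD homeobox cluster that has been studied in several cancers. It lies on chromosome 2 (ENSG00000224189, 176164051 to 176188958, minus strand) and had 16.8, 16.8 and 16.8 CPM in the shITGB5 libraries, against 30.4, 32.4 and 29.3 CPM in the shcontrol libraries. The groups did not overlap, and the 3 shITGB5 values were nearly equal. The mean was 16.8 ± 0.00508 CPM in shITGB5 and 30.7 ± 1.58 CPM in shcontrol, 45.1% lower in shITGB5, a log2 change of -0.87 (SE 0.0799, edgeR adjusted p = 3.31e-13). HOXD1, the homeobox gene that starts head to head with it, had 94 counts in all and averaged 0.524 ± 0.234 CPM in shITGB5 and 1.34 ± 0.206 CPM in shcontrol, a log2 change of -1.36 (edgeR adjusted p = 0.0158), a call that was lost when shITGB5 1 (edgeR adjusted p = 0.102), shITGB5 3 (edgeR adjusted p = 0.0696) or shcontrol 3 (edgeR adjusted p = 0.0890) was left out. DESeq2 gave HOXD1 no adjusted p. Of the exonic bases of HAGLR, 13.8% are also exons of the other strand. The rest of the cluster was nearly silent, HOXD3 at 0 counts and HOXD4, HOXD8, HOXD9, HOXD10, HOXD11 and HOXD12 at 2 to 10, while HOXD13 had 305 counts and did not pass (log2 change 0.29, edgeR adjusted p = 0.443).

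KCNQ1OT1 is a long RNA, unspliced over 91667 bases, that is made from the paternal copy of an imprinted region and silences neighbouring genes on that copy. It lies on chromosome 11 (ENSG00000269821, 2608328 to 2699994, minus strand), inside KCNQ1, a potassium channel gene with only 17 counts. It had 50.2, 54.0 and 54.6 CPM in shITGB5 libraries, against 88.3, 86.5 and 89.8 CPM in shcontrol libraries. No shITGB5 library came near any shcontrol library. The means of 52.9 ± 2.39 CPM in shITGB5 and 88.2 ± 1.65 CPM in shcontrol gave a log2 change of -0.74 (SE 0.0479, edgeR adjusted p = 2.8e-19), 40% lower in shITGB5. CDKN1C, a cyclin-dependent kinase inhibitor of the same imprinted region, averaged 4.37 ± 1.11 CPM in shITGB5 and 6.86 ± 0.204 CPM in shcontrol, a log2 change of -0.65 (edgeR adjusted p = 0.00317, and 0.0666 without shITGB5 3). PHLDA2 and SLC22A18, further imprinted genes there, had log2 changes of -0.05 and 0.04 (edgeR adjusted p = 0.815 and 0.735). These neighbours were chosen after their values were seen.

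MALAT1 and NEAT1, long RNAs that stay in the nucleus as KCNQ1OT1 does, were looked at after their values were seen, and neither is an antisense gene of the set. MALAT1 averaged 173.8 ± 7.96 CPM in shITGB5 and 368.7 ± 11.3 CPM in shcontrol, a log2 change of -1.08 (edgeR adjusted p = 3.01e-36). NEAT1 averaged 297.7 ± 9.03 CPM in shITGB5 and 355.8 ± 7.28 CPM in shcontrol, a log2 change of -0.26 (edgeR adjusted p = 7.10e-11).

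**Figure D3:**
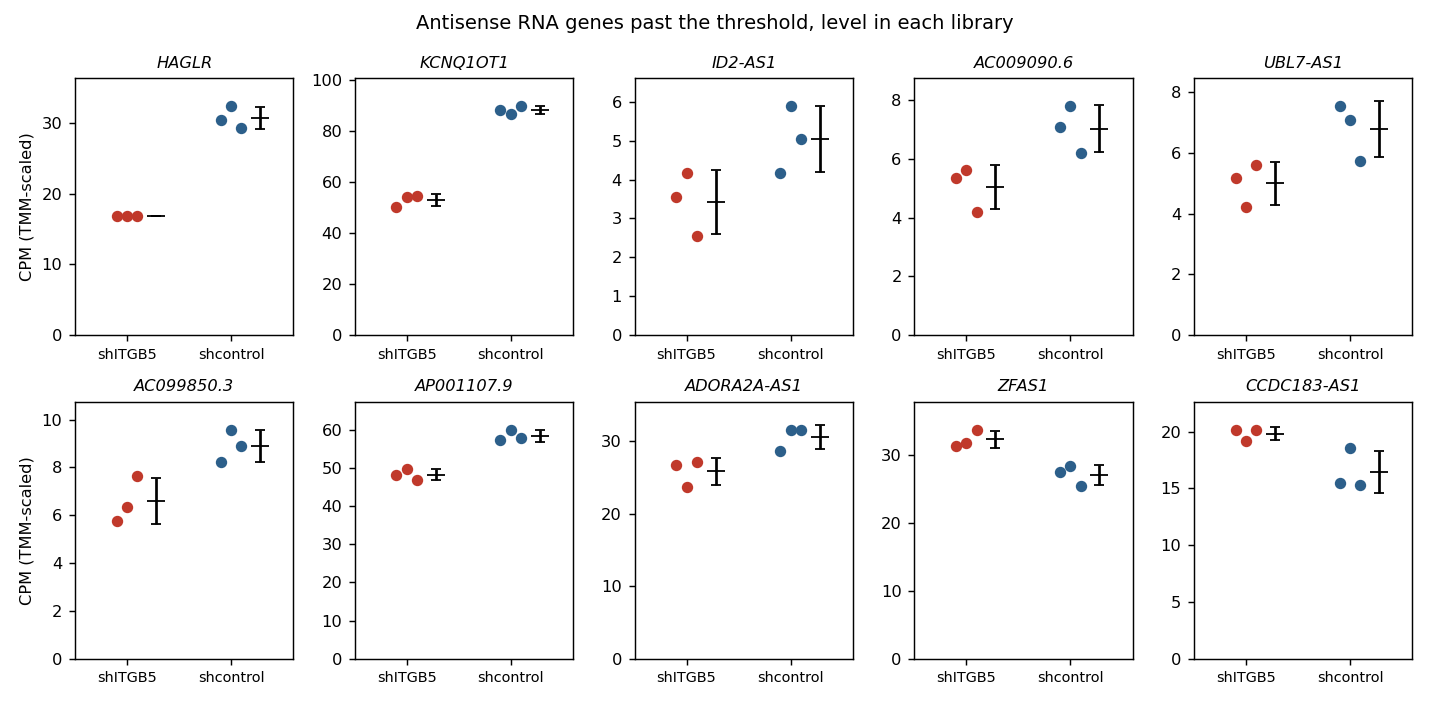
Level of each of the 10 antisense genes that passed, in CPM (y axes, each from 0), in the 3 shITGB5 libraries (red) and the 3 shcontrol libraries (blue), with the mean and SD as a bar beside the points. The groups do not overlap in any panel, by a wide margin for HAGLR and KCNQ1OT1 and by little for ID2-AS1, UBL7-AS1 and CCDC183-AS1.

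ID2-AS1 and AC099850.3 were lower together with the genes they overlap. ID2-AS1 (ENSG00000235092, chromosome 2, 8666636 to 8681863, minus strand) had 3.56, 4.17 and 2.55 CPM in shITGB5 libraries, against 4.18, 5.89 and 5.05 CPM in shcontrol libraries. Its highest shITGB5 library lay just below its lowest shcontrol library. The log2 change was -0.56 (SE 0.19, edgeR adjusted p = 0.0348), and the call was lost without shITGB5 1 or 3 or shcontrol 2 or 3, with adjusted p up to 0.246, and without the low-count filter, with an edgeR adjusted p of 0.0567. DESeq2 gave ID2-AS1 no adjusted p. ID2, an inhibitor of basic helix-loop-helix transcription factors, averaged 198.1 ± 9.07 CPM in shITGB5 and 235.8 ± 2.02 CPM in shcontrol, a log2 change of -0.25 (edgeR adjusted p = 6.18e-09), and had 51.5 times the counts of ID2-AS1. Of its relatives, ID1 was higher (log2 change 0.12, edgeR adjusted p = 0.000127) and ID3 did not pass (0.05, edgeR adjusted p = 0.275). AC099850.3 (ENSG00000265415, chromosome 17, 59202677 to 59203829, minus strand) had 5.78, 6.34 and 7.66 CPM in shITGB5 libraries and 8.24, 9.58 and 8.91 CPM in shcontrol libraries, so that the groups were apart. Its log2 change was -0.43 (edgeR adjusted p = 0.0216), lost without shITGB5 1 or 2 or shcontrol 2 or 3, with adjusted p up to 0.129. It lies inside PRR11, a proline-rich protein linked to the cell cycle, which averaged 49.9 ± 1.76 CPM in shITGB5 and 56.5 ± 1.37 CPM in shcontrol (log2 change -0.18, edgeR adjusted p = 0.0126, lost without shITGB5 3 or shcontrol 2). Of the exonic bases of AC099850.3, 30.2% are also exons of the other strand.

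AP001107.9 and ADORA2A-AS1 were lower by less. AP001107.9 (ENSG00000255468, chromosome 11, 66347950 to 66364804, plus strand) had 48.1, 49.6 and 46.7 CPM in shITGB5 libraries, against 57.2, 60.0 and 57.7 CPM in shcontrol libraries. The groups were well apart, with a log2 change of -0.28 (SE 0.0535, edgeR adjusted p = 8.05e-05). Its tail meets that of SLC29A2, a nucleoside transporter gene, which did not pass (log2 change 0.05, edgeR adjusted p = 0.447). ADORA2A-AS1 (ENSG00000178803, chromosome 22, 24429206 to 24495074, minus strand) had 26.7, 23.7 and 27.2 CPM in shITGB5 libraries, against 28.6, 31.5 and 31.6 CPM in shcontrol libraries. The groups did not overlap, with a log2 change of -0.24 (edgeR adjusted p = 0.0195), and the call was lost without shITGB5 2 (edgeR adjusted p = 0.143), shcontrol 2 (edgeR adjusted p = 0.0779) or shcontrol 3 (edgeR adjusted p = 0.0829). UPB1, an enzyme of pyrimidine breakdown in the liver, and ADORA2A, an adenosine receptor, lie on the other strand and did not pass (log2 change -0.11 and -0.46, edgeR adjusted p = 0.605 and 0.0785).

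AC009090.6 and UBL7-AS1 were the remaining lower genes. AC009090.6 (ENSG00000285979, chromosome 16, 57177349 to 57181390, plus strand) had 5.34, 5.62 and 4.2 CPM in shITGB5 libraries, against 7.09, 7.80 and 6.19 CPM in shcontrol libraries. The groups did not overlap, with a log2 change of -0.48 (edgeR adjusted p = 0.0269, lost without shITGB5 3 or shcontrol 1 or 2, with adjusted p up to 0.164). It lies inside FAM192A, which did not pass (log2 change -0.10, edgeR adjusted p = 0.206). UBL7-AS1 (ENSG00000247240, chromosome 15, 74461265 to 74481302, plus strand) had 5.17, 4.23 and 5.61 CPM in shITGB5 libraries, against 7.55, 7.08 and 5.75 CPM in shcontrol libraries. Its highest shITGB5 library lay just below its lowest shcontrol library, with a log2 change of -0.44 (edgeR adjusted p = 0.0482, lost without shITGB5 1 or 2 or shcontrol 1 or 2, with adjusted p up to 0.221). The call was also lost with DESeq2 (adjusted p = 0.0715), with the replicate block (edgeR adjusted p = 0.0605) and without the low-count filter (edgeR adjusted p = 0.0920). Of its exonic bases, 45.7% are shared with the pseudogene AC012435.1, which had 40 counts. UBL7, a ubiquitin-like protein gene that lies next to it, had a log2 change of 0.14 (edgeR adjusted p = 0.0511).

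The 2 higher genes were ZFAS1 and CCDC183-AS1. ZFAS1, which hosts small nucleolar RNAs of the SNORD12 family, starts head to head with ZNFX1, a helicase of antiviral defence. It lies on chromosome 20 (ENSG00000177410, 49278178 to 49295738, plus strand) and had 31.3, 31.7 and 33.7 CPM in shITGB5 libraries, against 27.5, 28.3 and 25.3 CPM in shcontrol libraries. The groups did not overlap, with a log2 change of 0.25 (SE 0.072, edgeR adjusted p = 0.00905), 19.2% higher. Of its exonic bases, 26.1% are shared with the other strand. The call was lost without shITGB5 3 (edgeR adjusted p = 0.0750) or shcontrol 3 (edgeR adjusted p = 0.0744), and ZNFX1 had a log2 change of -0.10 (edgeR adjusted p = 0.104). CCDC183-AS1 (ENSG00000228544, chromosome 9, 136803927 to 136808848, minus strand) had 20.2, 19.1 and 20.1 CPM in shITGB5 libraries, against 15.4, 18.6 and 15.3 CPM in shcontrol libraries. The shcontrol 2 library came close to the shITGB5 libraries, and the log2 change was 0.27 (edgeR adjusted p = 0.0343, lost without shITGB5 1 or 3 or shcontrol 1 or 3, with adjusted p up to 0.173, and without the low-count filter, with 0.0526). RABL6, a Rab-like GTPase gene with 16.0 times its counts, averaged 313.1 ± 5.02 CPM in shITGB5 and 268.5 ± 7.73 CPM in shcontrol (log2 change 0.22, edgeR adjusted p = 1.10e-08), and 31.2% of the exons of CCDC183-AS1 are shared with the other strand. CCDC183 and AL355987.4 overlap CCDC183-AS1 too and did not pass (log2 change 0.28 and 0.04, edgeR adjusted p = 0.0620 and 0.880). MHENCR, which overlaps no gene of the other strand, had the largest rise of the set and missed the threshold. It had 6.06, 5.13 and 5.56 CPM in shITGB5 libraries, against 3.60, 4.17 and 4.36 CPM in shcontrol libraries (log2 change 0.47, edgeR adjusted p = 0.0502).

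Of the 6 antisense genes with the highest CPM, KCNQ1OT1 and AP001107.9 were lower in shITGB5 and the other 4 did not pass. FGD5-AS1, the highest by CPM, had 191.4, 193.5 and 189.8 CPM in shITGB5 libraries and 194.8, 194.8 and 185.9 CPM in shcontrol libraries. The groups overlapped (log2 change -0.00, edgeR adjusted p = 0.971, SE 0.0317). Besides KCNQ1OT1 and AP001107.9, the highest 6 also held PSMA3-AS1, which averaged 61.3 ± 3.41 CPM in shITGB5 and 65.9 ± 2.26 CPM in shcontrol (log2 change -0.10, edgeR adjusted p = 0.176). GABPB1-AS1 had 37.9, 36.1 and 38.2 CPM in shITGB5 libraries and 38.7, 40.2 and 43.2 CPM in shcontrol libraries, apart but not past the threshold (log2 change -0.12, edgeR adjusted p = 0.212). THUMPD3-AS1 averaged 37.1 ± 1.44 CPM in shITGB5 and 37.1 ± 3 CPM in shcontrol (edgeR adjusted p = 0.996). Their sense genes NR2C2, PSMA3, GABPB1 and SETD5 had log2 changes between -0.05 and 0.02, and none passed. Per length, AP000759.1 was highest at 41.4 FPKM (log2 change -0.01), followed by FGD5-AS1 at 37.4 FPKM.

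Of 34 antisense RNAs listed for a known name or role, 11 were in the set, and 2 of these 11, KCNQ1OT1 and ZFAS1, passed, where 15.1% of all genes did. HOTAIR, an RNA of the HOXC cluster known for binding Polycomb repressive complex 2, averaged 3.06 ± 0.394 CPM in shITGB5 and 2.84 ± 0.294 CPM in shcontrol (log2 change 0.11, edgeR adjusted p = 0.82). HOTAIRM1 and HOXA-AS2, from the HOXA cluster, had log2 changes of -0.22 and -0.05 (edgeR adjusted p = 0.39 and 0.84). TMPO-AS1, NNT-AS1, EGFR-AS1, MCM3AP-AS1 and SBF2-AS1 had log2 changes of 0.30, -0.09, -0.09, 0.06 and 0.04 and did not pass either (edgeR adjusted p = 0.41 to 0.946).

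An overlapping sense gene was found for 198 of the antisense genes, 192 of them protein-coding. Of the 181 distinct sense genes tested, 36 passed (19.9%), 18 higher and 18 lower, against 15.1% of all genes and 17.8% of protein-coding genes. Of the 10 antisense genes that passed, 4 had a sense gene that passed in the same direction, HAGLR with HOXD1, ID2-AS1 with ID2, AC099850.3 with PRR11 and CCDC183-AS1 with RABL6. For 0 of the 10 did the sense gene pass in the opposite direction, for 4 it did not pass, and for 2 it could not be tested. The other 32 antisense genes with a changed sense gene did not pass themselves, and 17 of them had a log2 change of the same sign. Over the 184 pairs in which both genes were tested, Spearman's rho between both log2 changes was 0.21, and 105 pairs had the same sign. The pairs share the 6 libraries. The sense gene had more counts in 150 of the 198 pairs, and the median ratio of its counts to those of the antisense gene was 5.73. HOXD1 had 0.0389 times the counts of HAGLR. The part of misassigned reads in the pairs was not tested.

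By the layout of the pair, counts and correlations were as follows. Head-to-head genes, which start near each other and run apart, numbered 65, with 2 higher, 3 lower and a Spearman's rho with the sense gene of 0.34 over 65 pairs. Tail-to-tail genes, which run into each other, also numbered 65, with 2 lower and a rho of 0.09 over 59 pairs. Of 48 genes inside a sense gene 3 were lower, with a rho of 0.24 over 46 pairs, and of the 20 that contain a sense gene and the 20 that overlap none, none passed (edgeR; at an unadjusted p under 0.05, 2 of each 20 passed, and 0 by DESeq2). The 10 genes that passed were all among the 162 that share exonic bases with the other strand, where the median log2 change was -0.06, against 0.00 among the 56 that share none. Of these 56, 0 passed by edgeR, 3 had an unadjusted p under 0.05 and 0 passed by DESeq2. Of all genes tested, 15.1% passed, and of those with 300 to 999 counts, the range of 158 of the 218, 5.18% passed. With so few genes in a layout, its count was not tested against these shares, and a count of 0 does not set it apart. DESeq2 gave no adjusted p to some antisense genes, MHENCR among them. Such genes could not pass by it, which limits its counts of 0 here.

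**Figure D4:**
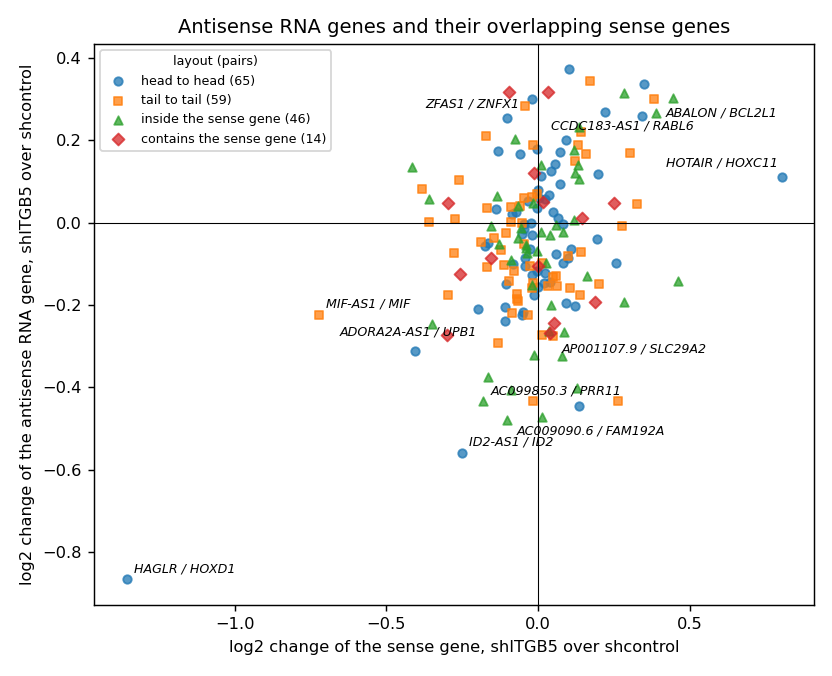
Log2 change of the antisense gene (y axis) against that of its overlapping sense gene (x axis), both shITGB5 over shcontrol, for the 184 pairs with both tested, by layout, with the pairs named in the text labelled. HAGLR and HOXD1 lie farthest to the lower left, at -0.87 and -1.36, and most pairs lie within 0.25 of 0 on the y axis.

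Some sense genes changed where their antisense gene did not pass, and these pairs were chosen after their values were seen. MIF-AS1 had 5.67, 5.25 and 5.44 CPM in shITGB5 libraries and 6.18, 6.19 and 6.76 CPM in shcontrol libraries (log2 change -0.22, edgeR adjusted p = 0.39), and MIF, a cytokine gene that shares 46.5% of the exons of MIF-AS1 and had only 383 counts, averaged 2.84 ± 0.793 CPM in shITGB5 and 4.69 ± 0.100 CPM in shcontrol (log2 change -0.72, edgeR adjusted p = 0.00714, and 0.107 without shITGB5 3). ABALON, of whose exons 74.8% are shared with BCL2L1, had a log2 change of 0.27 (edgeR adjusted p = 0.133), and BCL2L1, an inhibitor of apoptosis, had a log2 change of 0.39 (edgeR adjusted p = 1.64e-16). HOXC11, head to head with HOTAIR, averaged 3.22 ± 0.719 CPM in shITGB5 and 1.83 ± 0.820 CPM in shcontrol (log2 change 0.80, edgeR adjusted p = 0.0255, lost without shITGB5 1 or 3 or shcontrol 3, with adjusted p up to 0.262). DESeq2 gave no adjusted p to MIF or HOXC11. TTN-AS1 and GATA6-AS1 had log2 changes of -0.07 and -0.21 (edgeR adjusted p = 0.874 and 0.217), while TTN, which encodes titin, and GATA6, a transcription factor of liver and gut development, had log2 changes of -0.28 and -0.20 (edgeR adjusted p = 4.06e-08 and 7.62e-05).

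The share of genes with a log2 change below 0 was larger among antisense genes that hold AGACCAA or its shifted form GACCAAA in their exons than among those that hold neither. Both words came from an earlier analysis of these same data, so their counts here are no independent evidence, and no test was made. Either word stood in 71 of the 218 antisense genes, of which 53 had a log2 change below 0, with a median of -0.09. Of the other 147 genes, 73 had a log2 change below 0, with a median of 0.00. Genes with a word were longer, with a median of 4397 exonic bases against 2198. Under 2000 bases, 10 of 11 genes with a word and 30 of 66 without lay below 0. From 2000 to under 5000 bases these were 22 of 31 and 35 of 64, and from 5000 bases 21 of 29 and 8 of 17. Among the genes that passed, 3 of 8 lower genes and 0 of 2 higher genes held a word, and 68 of the 208 that did not pass (32.7%). KCNQ1OT1 held 17 copies of AGACCAA and 9 of GACCAAA over its 91667 bases, HAGLR 1 of each and ID2-AS1 1 AGACCAA. Over all genes tested with a transcript sequence, either word stood in 66.4% of lower genes, 35.9% of higher genes and 40.1% of the rest. A second pair of words from that analysis, TCGGAGA and CGGAGAA, stood in 40 antisense genes, with a median log2 change of -0.07 against -0.02 without them. They stood in 2 of the 8 lower genes, HAGLR and KCNQ1OT1, and in 0 of the 2 higher genes, while over all genes tested they stood in 36.6% of higher and 22.9% of lower genes.

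**Figure D5:**
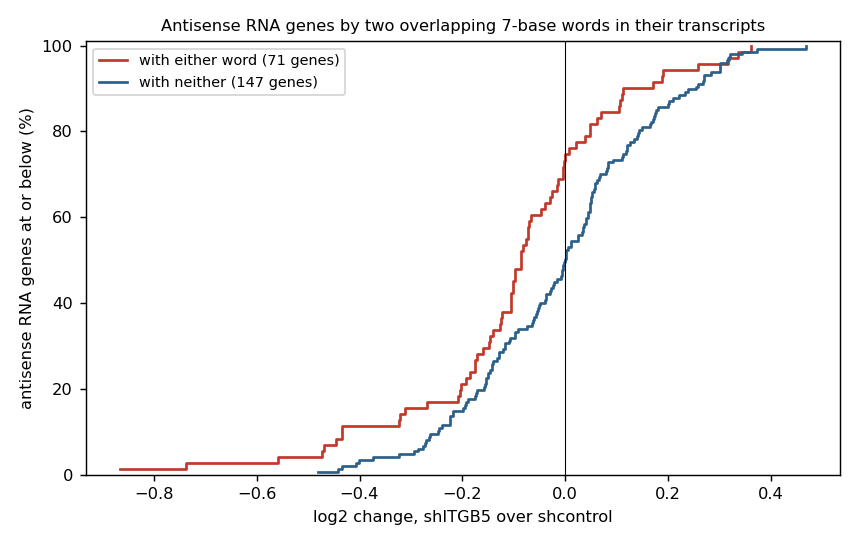
Cumulative share of antisense genes (y axis, %) at or below each log2 change of shITGB5 over shcontrol (x axis), for the 71 genes that hold either of the overlapping words AGACCAA and GACCAAA (red) and the 147 that hold neither (blue). The red line lies left of the blue one around 0, with medians of -0.09 and 0.00.

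Genes that make, trim or bind antisense RNA were examined as 4 lists. Of 20 tested genes of the nuclear exosome and its adaptors, 3 were higher and 3 lower (30%), with a median log2 change of -0.03. TENT4B, a poly(A) polymerase that marks RNA for the exosome, averaged 38.1 ± 1.77 CPM in shITGB5 and 50.3 ± 2.84 CPM in shcontrol (log2 change -0.40, edgeR adjusted p = 5.57e-07). EXOSC9, a core subunit, had a log2 change of -0.24 (edgeR adjusted p = 0.00213) and RBM7, an adaptor subunit, had a log2 change of 0.24 (edgeR adjusted p = 0.0421). Of 27 genes of the Integrator and transcription termination, 0 were higher and 5 lower (18.5%), among them INTS8 and INTS13 (both log2 changes -0.17, edgeR adjusted p = 0.00803 and 0.0429). Of 15 genes that edit, bind or sense double-stranded RNA, 3 were lower (20%), the RNA-binding proteins STAU2 (-0.23, edgeR adjusted p = 0.0357) and STAU1 (-0.20, edgeR adjusted p = 1.63e-07) and the editing enzyme ADAR (-0.13, edgeR adjusted p = 4.54e-05). Of the 10 genes of Polycomb repressive complex 2, a partner of several antisense RNAs, 0 passed by edgeR and 0 by DESeq2, 1 had an unadjusted p under 0.05, and the median log2 change was -0.04. Each share stands against 15.1% of all genes tested and 17.8% of protein-coding genes. With 1 library left out, INTS13 passed in 0 of the 6 fits, STAU2 was lost without shITGB5 2 or 3 or any shcontrol library (edgeR adjusted p up to 0.172), RBM7 without shITGB5 1 or any shcontrol library (edgeR adjusted p up to 0.337), EXOSC9 without shITGB5 3 or shcontrol 1 (edgeR adjusted p up to 0.0524) and INTS8 without shcontrol 3 (edgeR adjusted p = 0.0832). INTS13 was also lost with DESeq2 (adjusted p = 0.0502), the replicate block (edgeR adjusted p = 0.0553) and no low-count filter (edgeR adjusted p = 0.108). RBM7 was lost with DESeq2 (adjusted p = 0.0553) and no low-count filter (edgeR adjusted p = 0.0545). Without that filter STAU2 was lost too (edgeR adjusted p = 0.0799).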

How the data were processed

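RNA was sequenced from Huh7 cells in 6 libraries, for which the labels' protocols name total RNA and a directional library kit. The deposited table holds raw counts per gene as the authors made them, although it is named for FPKM: all values are whole numbers (tolerance 0). No source used here names the aligner, the counting program or how it treated strand. Positions and gene types of all 58735 genes equalled those of GENCODE release 29 (GRCh38), and 0 mapped columns were left out.

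Counts were fitted with edgeR 4.0.16 in R 4.3.3 (filterByExpr, TMM scaling with factors of 0.998 to 1.00, quasi-likelihood test, no covariate), two-sided, with Benjamini-Hochberg adjustment over 16577 genes and a threshold of 0.05. CPM are counts divided by the TMM-scaled column total, and FPKM were computed from them and the deposited gene lengths. The edgeR step was tested on simulated data. Sense genes are the protein-coding gene on the other strand with the most counts that overlaps by at least 1 base, or otherwise any other type. Words were counted in GENCODE 29 transcripts, on the strand of the gene, for 16569 of the genes tested. Promoters came from RefSeq on GRCh38.p14.

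The members, the gene lists and the words were chosen with earlier results of these data known. The text names members past the threshold, the 6 highest by CPM, those at the edge of the rule, listed RNAs with a known role, and their sense genes. A gene that the rule for the lists took is not reported here. Alternatives were other scalings (RLE factors, library totals), no low-count filter or at least 1 CPM in 3 libraries, DESeq2 1.42.0, a replicate block and leaving out each library. No libraries of a group held identical values, and their counts differed by more than counting error (chi-square per degree of freedom 2.03 to 2.38).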

Additional observations from a re-analysis of the deposited data

How the results depend on the processing

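Of the 218 antisense genes, 10 passed with RLE factors, with library totals and with a minimum of 1 CPM in 3 libraries, 7 without a low-count filter, 8 with DESeq2 and 9 with the replicate block, and each was among the 10 of the main result. DESeq2 gave no adjusted p to some of the 218, ID2-AS1 among them, so these could not pass by it. Leaving out 1 library gave between 5 and 7, with 6 without shITGB5 1 or shITGB5 3 and 5 without shcontrol 2 or shcontrol 3, and the cause was not tested. HAGLR, KCNQ1OT1 and AP001107.9 passed under every one of these settings. Replicate numbers did not pair the libraries, with correlations of same-numbered deviations of 0.01, -0.02 and -0.02 over 15190 genes, and the block gave 2303 calls over all genes, against 2495 without it. Calls over all genes ranged from 1939 to 2518, and those of sense genes from 26 to 36. Of 756 values for 64 named genes, 665 kept direction and side of the threshold, 63 no longer passed, 4 newly passed (ADORA2A without shITGB5 1 or shcontrol 1, UBL7 with the 1 CPM minimum or without shITGB5 1) and 24 changed sign, all for genes that did not pass. Named genes to which DESeq2 gave no adjusted p have no DESeq2 value among the 756. The log2 change of THUMPD3-AS1 was 0.0060 without a low-count filter, 0.0010 with DESeq2 and 0.0015 with the replicate block, and that of FGD5-AS1 was 0.0042 without a low-count filter. With 1 library left out, the log2 change ranged from -0.0668 to 0.0343 for THUMPD3-AS1, -0.0264 to 0.0067 for FGD5-AS1, -0.19 to 0.0076 for UPB1, -0.0365 to 0.1042 for GABPB1, -0.1006 to 0.0279 for PHLDA2, -0.0060 to 0.17 for MCM3AP-AS1, -0.21 to 0.0094 for EGFR-AS1, -0.41 to 0.10 for TTN-AS1, -0.0725 to 0.1498 for SBF2-AS1 and -0.0584 to 0.0564 for AP000759.1. The antisense genes had a median of 554 counts over 6 libraries, which limits how small a change could be detected.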
